A study of Hevea brasiliensis with 2 samples.

Results

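Among the unigenes (assembled transcript sequences) whose level differed between latex of the rubber tree (Hevea brasiliensis) clones PR107 and CATAS8-79, 175 were annotated as parts of the ubiquitin-proteasome system. They were taken from the 6726 unigenes that the authors called differentially expressed, out of 51192 unigenes with reads counted (13.1%). A unigene was a member when the text of its best hit in the Nr or Swissprot protein database held ubiquitin, proteasome, F-box, RING finger, RING-H2, U-box, cullin, SKP1 or SUMO, and 5 unigenes with such a word were left out because their texts also named a hormone response or a ribosomal protein. Because the list of called unigenes was itself made from the contrast of the clones, every member differs by at least 2-fold by construction, and the differences below are a description with no test.

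PR107 and CATAS8-79 (written RY8-79 in the sample labels) are cultivars that are propagated by grafting. For each clone the latex of 5 trees was pooled at tapping 1, from trees that the labels give as 3 years old, and 1 library was sequenced. Neither group had a treatment apart from tapping. The question of the study was which transcripts differ between clones that differ in how long latex flows and how fast it is made again. With 1 library per clone there is no replicate check of any difference, and clone, pool and library cannot be told apart. In bulk latex, fewer cells of a type and less RNA per cell cannot be told apart either.

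Ubiquitin is a small protein that cells attach to other proteins. An activating enzyme (E1) passes it to a conjugating enzyme (E2), and a ligase (E3) picks the substrate. Chains of ubiquitin send many substrates to the 26S proteasome, which is built from a barrel-shaped 20S core that cuts proteins and a 19S regulatory particle that receives and unfolds them. F-box proteins are the substrate-binding subunits of SCF ligases, in which a cullin holds the RING subunit and the adaptor SKP1. Plants carry large F-box and RING families, several of which act in hormone, light and nutrient responses. Latex is the cytoplasm of laticifers, so its RNA comes from cells that make rubber.

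The libraries were of like depth. In units of 1000000, the reads counted on unigenes came to 6.87 in PR107 and 6.92 in CATAS8-79, and the median unigene had 40 reads in PR107 and 38 in CATAS8-79. The 175 members took 27937 reads (0.407%) in PR107 and 29470 reads (0.426%) in CATAS8-79. Levels are given as reads and as RPKM, reads per kilobase of unigene in every 1000000 counted reads. Log2 ratios are PR107 over CATAS8-79 on the library totals, their intervals are 95% Clopper-Pearson intervals that cover counting error only, and a count of 0 is given as a bound at 3 reads. Annotation was at hand for called unigenes only, which limits the check of the tissue. The small rubber particle protein, a defining latex protein, was called once (Unigene823, 274 reads in PR107 and 51 in CATAS8-79), while no unigene annotated as rubber elongation factor or hevein was among the called ones.

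Of the 175 members, 74 were higher in PR107 and 101 were higher in CATAS8-79. The members thus leaned to CATAS8-79, with 42.3% higher in PR107, whereas 55.1% of all 6726 called unigenes were higher in PR107. Members could come only from unigenes with a database text. Of the called unigenes 4915 had an Nr text, and the share higher in PR107 among these alone was not computed. The median log2 ratio was -1.09 over the members and 1.10 over all called unigenes. As no called unigene differs by less than 2-fold, these medians restate the shares and do not measure the size of the lean. Summed reads gave a log2 ratio of -0.07 over the members and 0.04 over all called unigenes. Which library a value belongs to rests on the clone numbers in the deposited column names. The paper's text splits the called unigenes the other way, with fewer of them higher in PR107, and this was not settled here. The lean is also seen in members with more than 3 reads in both libraries (63 of 153 higher in PR107). When unigenes with an identical Nr text were summed, 42 of 94 sums were higher in PR107. Many of these texts are family names that different genes share, so the sums cannot stand for single genes. The lean varied with length. Of members from 500 bp to under 1000 bp, 28 of 66 (42.4%) were higher in PR107, beside 53.9% of called unigenes of that length, but of members of 1000 bp or longer 19 of 36 (52.8%) were, beside 50.7% of called unigenes. Scaling also moves the share it is set beside. With TMM in place of library totals, 50.3% of the unigenes called by the recomputed test given at the end were higher in PR107, against 55.6% on the totals, while a shift that small cannot turn a member that differs by 2-fold.

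**Figure D1:**
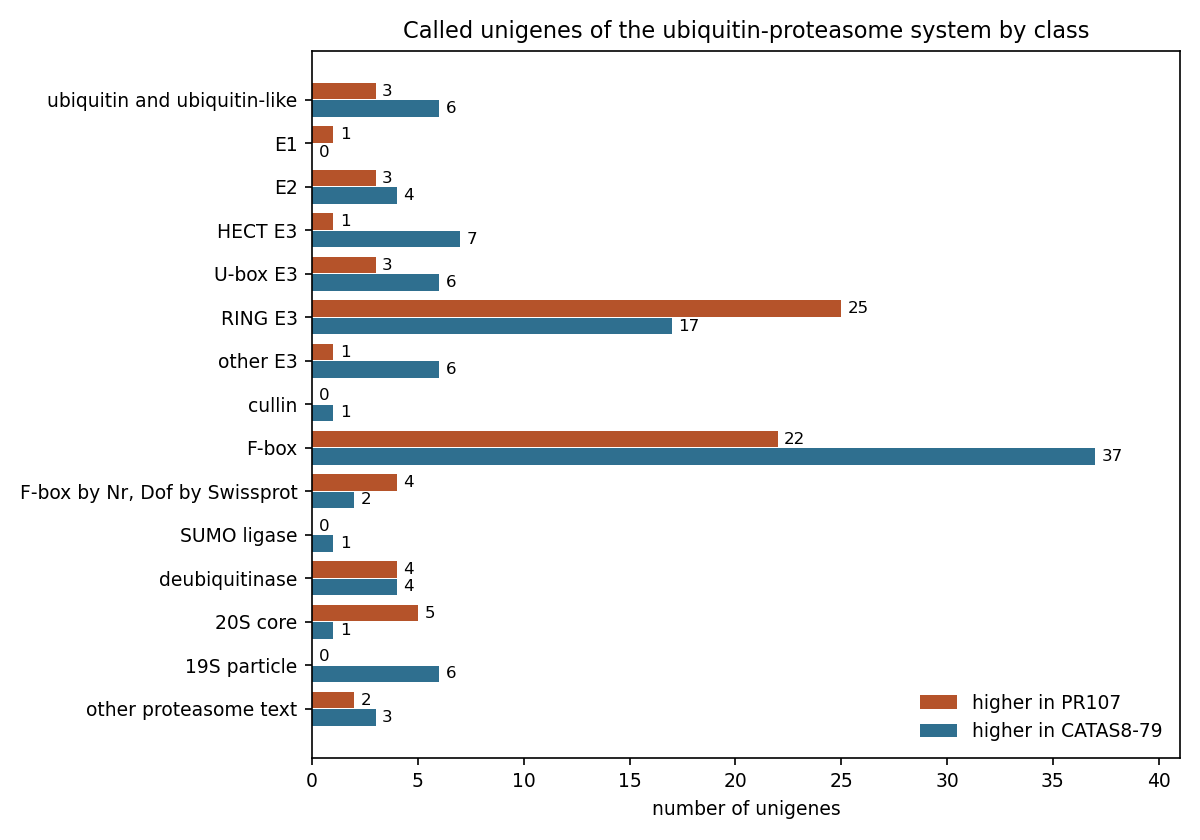
Number of called unigenes in each class of the ubiquitin-proteasome system that were higher in PR107 (orange) or in CATAS8-79 (blue). The 20S core (5 against 1) leans to PR107, whereas the F-box (22 against 37), HECT (1 against 7) and 19S classes (0 against 6) lean to CATAS8-79. In the RING E3 class (25 against 17) 59.5% were higher in PR107, near the 55.1% of all called unigenes.

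Most changes were moderate. The absolute log2 ratio was 2 or more in 58 members, 29 in each direction, and under 1.1 in 22. Intervals were taken only for the 164 members with reads in both libraries. Among these the 95% counting interval lay wholly past 2-fold in 79, 39 higher in PR107 and 40 higher in CATAS8-79, and wholly past 4-fold in 15. Just inside the threshold stood a Tubby-like F-box unigene, Unigene3117 (422 reads in PR107, 212 in CATAS8-79), and a SKIP11-like F-box unigene, Unigene125 (257 in PR107, 518 in CATAS8-79). Values just outside it are not given, as uncalled unigenes carry no annotation. One library held no reads for 11 members, 6 of them without reads in PR107 and 5 without reads in CATAS8-79.

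**Figure D2:**
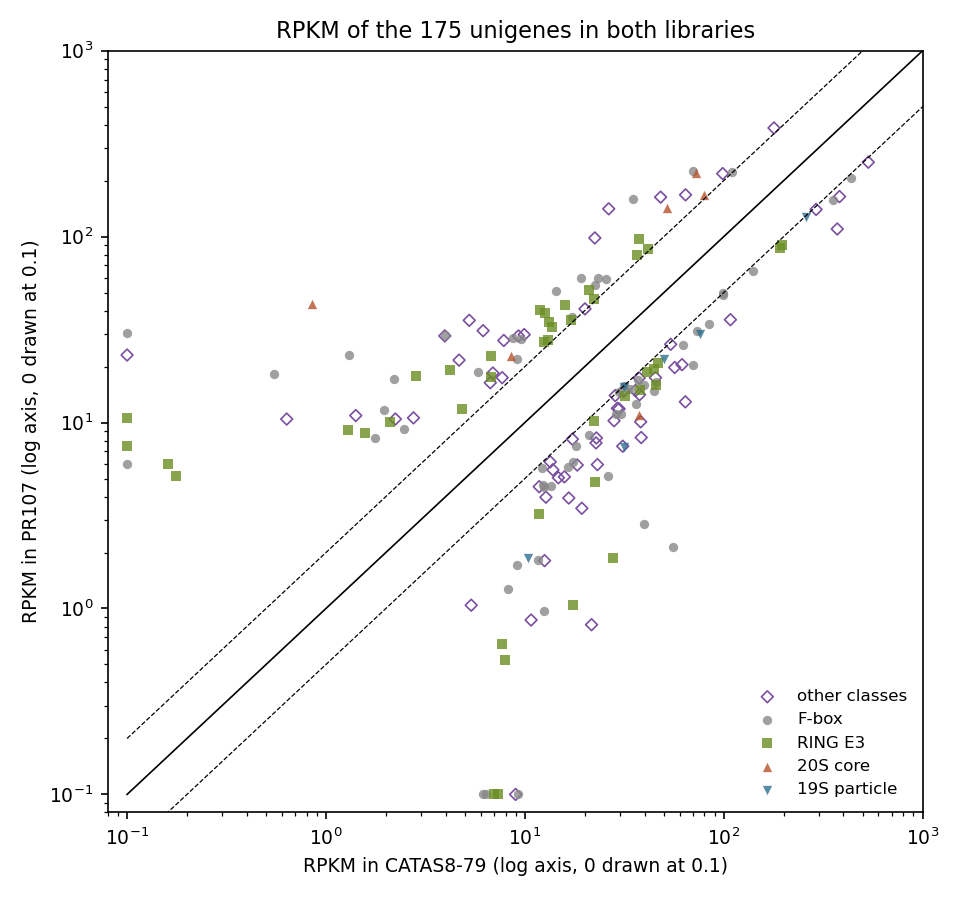
RPKM of the 175 members, PR107 on the vertical and CATAS8-79 on the horizontal log axis, with the equal line (solid) and the 2-fold lines (dashed). Every point lies on or outside the dashed lines because the members were chosen that way. Of the 20S core points the one farthest from the equal line is Unigene14300, at 43.3 RPKM in PR107 and 0.852 RPKM in CATAS8-79.

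The members also differed with the number the assembly gave them, and this bears on each class below. All numbers are present up to 29886, and within this range 43 of 108 members were higher in PR107 (39.8%, against 52.8% of called unigenes). From 29888 to 40539 only 6 of 38 members were higher in PR107 (called unigenes 19.3%), and from 40540 on 25 of 29 were (called unigenes 90.7%). The border at 40540 was placed where the direction of the called unigenes turns, so the contrast of the last ranges is no independent result, and its cause was not tested. In the first range the lean of the members to CATAS8-79 stands without these unigenes.

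The 20S core of the proteasome was higher in PR107 in 5 of 6 unigenes, and all of them lie in the first number range. The widest ratio among members with reads in both libraries was that of Unigene14300, similar to the beta subunit PBC1 (beta type-3-A), a structural subunit of the inner rings. It had 252 reads (43.3 RPKM) in PR107 and 5 reads (0.852 RPKM) in CATAS8-79, a log2 ratio of 5.67 (4.42 to 7.30). Of the subunits of the outer alpha rings, which gate the entry to the core, alpha type-5 (Unigene10056) had 984 reads (142 RPKM) in PR107 and 360 reads (51.7 RPKM) in CATAS8-79. Alpha type-2-B (Unigene25381) had 320 reads in PR107 and 153 reads in CATAS8-79. The alpha 6 subunit (Unigene20540) was sparser, with 48 reads in PR107 and 18 reads in CATAS8-79. The log2 ratios of these alpha subunits were 1.46, 1.08 and 1.43, so each was between 2.11-fold and 2.75-fold higher in PR107.

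The beta subunit D, another structural subunit of the core, went both ways. PBD1 (beta type-2-A, Unigene9602) had 620 reads (221 RPKM) in PR107 and 206 reads (72.8 RPKM) in CATAS8-79. PBD2 (beta type-2-B, Unigene7838) had 16 reads (11.0 RPKM) in PR107 and 55 reads (37.7 RPKM) in CATAS8-79, a log2 ratio of -1.77 (-2.67 to -0.95). The isoform with more reads was thus the one higher in PR107. Summed over the 6 core unigenes, PR107 had 2240 reads and CATAS8-79 had 797, a log2 ratio of 1.50 (1.38 to 1.62).

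All 6 called unigenes placed with the 19S regulatory particle were lower in PR107, including an assembly chaperone given below. They summed to 615 reads in PR107 and 1402 in CATAS8-79 (log2 ratio -1.18, interval -1.32 to -1.04). Unigenes similar to RPN1a, the subunit on which ubiquitin receptors and shuttle factors dock, were the most abundant of them. Unigene26765 had 366 reads (128 RPKM) in PR107 and 752 reads (260 RPKM) in CATAS8-79. Unigene25030 had 98 reads in PR107 and 250 in CATAS8-79, and Unigene43789 had 16 reads in PR107 and 69 in CATAS8-79. RPN2a (Unigene773), the other large scaffold of the base, had 52 reads in PR107 and 107 in CATAS8-79.

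The other called 19S unigenes were sparser. Non-ATPase subunit 11 (Unigene4352), the lid subunit known as RPN6 in yeast and Arabidopsis, had 73 reads in PR107 and 168 in CATAS8-79. Non-ATPase subunit 10 (Unigene34319), an assembly chaperone of the base in human cells, had 10 reads (1.86 RPKM) in PR107 and 56 reads (10.3 RPKM) in CATAS8-79, a log2 ratio of -2.47 (-3.61 to -1.49). The ATPase subunits of the base, which unfold the substrate, are not named with any of the search words. A search chosen after the data were seen found 1 of them among the called unigenes, RPT3 (Unigene2893), which was not counted as a member and had 201 reads (111 RPKM) in PR107 and 421 reads (230 RPKM) in CATAS8-79. The 3 RPN1a unigenes share 1 Swissprot hit and may be pieces of 1 gene or copies of it, which cannot be told apart here.

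**Figure D3:**
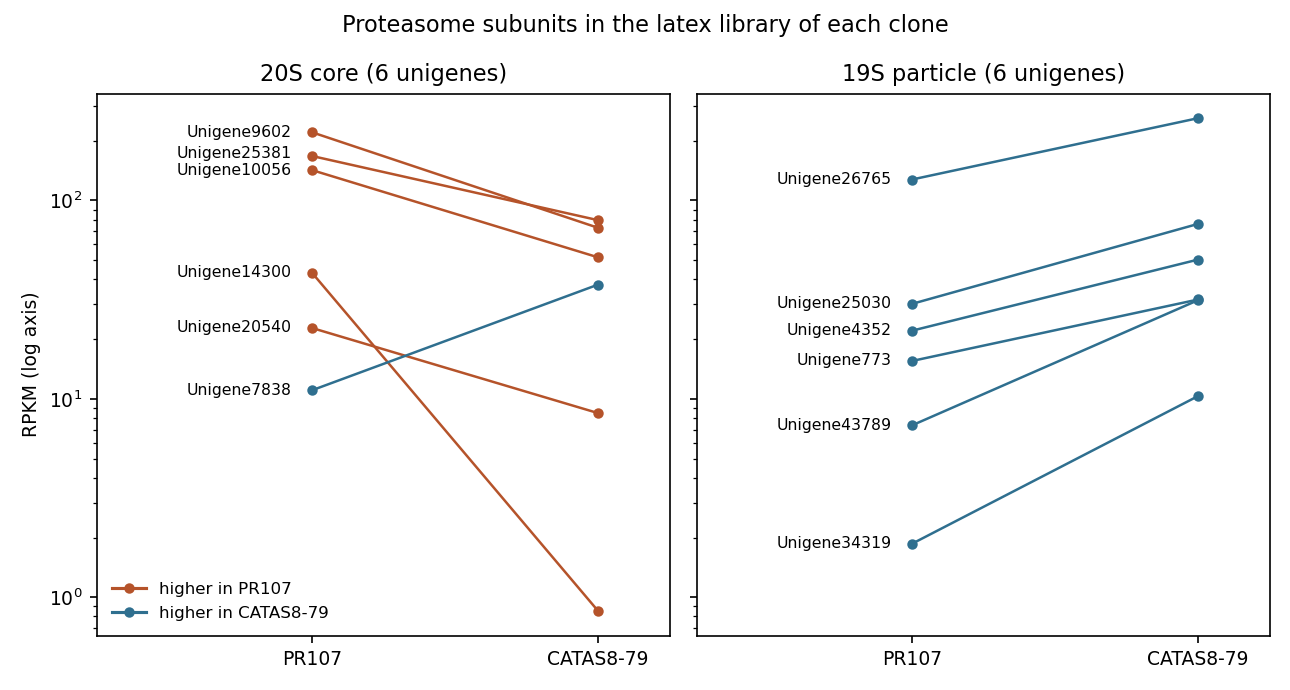
RPKM (log axis) of the called proteasome subunits, with a line joining the PR107 value (left) to the CATAS8-79 value (right) for each unigene. Lines of 5 of the 6 core unigenes fall toward CATAS8-79, steepest for Unigene14300, and all 6 lines of the 19S particle climb toward it.

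Other unigenes with proteasome in their text were mixed. A probable proteasome inhibitor (Unigene6157), of the family that binds the 20S core, was the most abundant, with 1600 reads (218 RPKM) in PR107 and 730 reads (98.9 RPKM) in CATAS8-79. Proteasome assembly chaperone 2 (Unigene11074), which helps to build the alpha ring, had 41 reads in PR107 and 88 in CATAS8-79. An unnamed proteasome-related protein (Unigene9714) had 32 reads in PR107 and 81 in CATAS8-79. For another pair the texts named other proteins. Unigene41842 (44 reads in PR107, 6 in CATAS8-79) is the RNA-binding protein Pno1, which acts in ribosome assembly, and Unigene25107 (182 reads in PR107, 621 in CATAS8-79) is a subunit of translation initiation factor eIF3 that shares a domain with the lid.

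Ubiquitin itself and its relatives were lower in PR107 in 6 of 9 unigenes. The most abundant were similar to human NEDD8 ultimate buster 1, a carrier that brings NEDD8-modified and ubiquitin-like proteins to the proteasome. Unigene24479 had 1404 reads (251 RPKM) in PR107 and 3001 reads (533 RPKM) in CATAS8-79, the highest RPKM of any member in that library. Unigene22337 had 414 reads (164 RPKM) in PR107 and 971 reads (382 RPKM) in CATAS8-79. The polyubiquitin unigenes, which encode chains of fused ubiquitin units, differed in opposite directions. Unigene33088 had 38 reads in PR107 and 145 in CATAS8-79, whereas Unigene44564 had 39 reads in PR107 and 0 in CATAS8-79, at least 13.1-fold higher in PR107.

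The best Nr hit of Unigene44564 is a red alga (Porphyra yezoensis), and ubiquitin is nearly the same in all plants, so reads may be shared among copies. A ubiquitin-like protein 1 (Unigene1742) had 21 reads in PR107 and 98 in CATAS8-79. Among unnamed ubiquitin family proteins, Unigene35870 had 19 reads in PR107 and 95 in CATAS8-79, and Unigene28681 had 36 reads in PR107 and 104 in CATAS8-79. The ubiquitin-fold modifier UFM1 (Unigene6106), which has its own conjugation enzymes, went the other way with 130 reads in PR107 and 49 in CATAS8-79. So did Unigene24160, with ubiquitin and WLM domains, at 165 reads in PR107 and 68 in CATAS8-79.

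The only E1 called, Unigene41188, similar to the ubiquitin-activating enzyme E1 2 of plants, had 49 reads (10.4 RPKM) in PR107 and 3 reads (0.635 RPKM) in CATAS8-79. The ratio was 16.5-fold, with a counting interval of 5.31-fold to 82.5-fold. It lies in the last number range, where 90.7% of called unigenes were higher in PR107.

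The E2 enzymes split 3 to 4. UBC27-like unigenes, whose Arabidopsis relative carries a ubiquitin-binding domain beside the E2 fold, were called 3 times and not in 1 direction. Unigene22937 was the member with the highest RPKM in PR107, with 863 reads (384 RPKM) in PR107 and 405 reads (179 RPKM) in CATAS8-79. Unigene26349 had 57 reads (20.5 RPKM) in PR107 and 173 reads (61.7 RPKM) in CATAS8-79, and Unigene29959 had 22 reads (7.78 RPKM) in PR107 and 65 reads (22.8 RPKM) in CATAS8-79. Summed, the UBC27-like reads were 942 in PR107 and 643 in CATAS8-79, so the abundant unigene set the sum while the sparser ones ran against it.

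PHO2 (Unigene13316, E2 24), which in Arabidopsis restrains phosphate uptake and loading by the turnover of phosphate transporters, was lower in PR107. It had 110 reads (35.8 RPKM) in PR107 and 335 reads (108 RPKM) in CATAS8-79, a log2 ratio of -1.60 (-1.92 to -1.28). An E2 of the UBC19 and UBC20 type (Unigene40372), which in Arabidopsis belongs to the group tied to cyclin turnover, had 34 reads in PR107 and 85 in CATAS8-79. Unigene47511, a UBC37-like E2 in Nr and E2 4 in Swissprot, had 242 reads (163 RPKM) in PR107 and 72 reads (48.2 RPKM) in CATAS8-79. Unigene45334, similar to an E2 of type h, had 67 reads in PR107 and 10 in CATAS8-79, with a ratio of 6.75-fold. The last pair of E2 unigenes lie in the last number range.

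E2 genes were also among the candidate reference genes for the study's quantitative PCR. HbUBC2B and HbUBC4 were judged suitable there and HbUBC2B was used. Primers are the only sequences of E2 genes at hand, and those of the 3 candidates are shown 5′ to 3′, from the study's primer list, because they define which E2 transcripts were considered as references while 7 E2 unigenes differed between the libraries. The unigene sequences were not used here, so no primer could be placed on a unigene, and the listed HbUBC2B pair is the same as the pair listed for HbRH2B.
HbUBC2A forward: catttatgcggatggaagca
HbUBC2A reverse: caggggagtttggatttgga
HbUBC2B forward: cgaccaagttttcatttcgggtg
HbUBC2B reverse: agtctcttctttgctggggttg
HbUBC4 forward: tccttatgagggcggagtc
HbUBC4 reverse: caagaaccgcacttgaggag

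HECT ligases, which take ubiquitin onto their own cysteine before handing it to the substrate, were lower in PR107 in 7 of 8 unigenes and sparse throughout. They summed to 140 reads in PR107 and 350 reads in CATAS8-79, a log2 ratio of -1.31 (-1.60 to -1.02). Of the 8, 4 lie in the first number range, all lower in PR107. The other 4 lie in the middle range, where only 19.3% of called unigenes were higher in PR107. All 3 UPL5-like unigenes were lower in PR107, and UPL5 in Arabidopsis acts against leaf senescence by the turnover of a WRKY factor. Unigene18510 had 43 reads in PR107 and 119 in CATAS8-79, Unigene26364 had 5 in PR107 and 26 in CATAS8-79, and Unigene40216 had 0 in PR107 and 36 in CATAS8-79, at least 11.9-fold lower in PR107. UPL4 (Unigene33494) had 4 reads in PR107 and 28 in CATAS8-79, and a UPL1-like unigene (Unigene39309) had 2 in PR107 and 25 in CATAS8-79.

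The UPL2-like unigenes, from the largest of the plant HECT proteins, did not move as 1. Unigene733 had 19 reads in PR107 and 50 in CATAS8-79, and Unigene22019 had 17 in PR107 and 50 in CATAS8-79. Unigene32439 had 50 reads in PR107 and 16 in CATAS8-79 and was the only HECT unigene higher in PR107. These 3 are between 249 and 612 bp long, so each can cover only a stretch of a long transcript.

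Plant U-box (PUB) ligases fell into groups by their hit. Both PUB40-like unigenes were higher in PR107: Unigene6056 with 981 reads (141 RPKM) in PR107 and 185 reads (26.4 RPKM) in CATAS8-79, and Unigene582 with 630 reads (98.4 RPKM) in PR107 and 145 reads (22.5 RPKM) in CATAS8-79. PUB41 (Unigene1822) was on the same side and had 324 reads (168 RPKM) in PR107 and 125 reads (64.3 RPKM) in CATAS8-79. The Nr texts of all 3 name armadillo repeats, by which such ligases hold their substrates. The summed PUB40-like reads gave a log2 ratio of 2.30 (2.13 to 2.47).

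All 4 PUB3-like unigenes, also of the armadillo kind, were lower in PR107 and summed to 536 reads in PR107 and 1251 in CATAS8-79. The most abundant, Unigene8110, had 281 reads (140 RPKM) in PR107 and 589 reads (292 RPKM) in CATAS8-79. Unigene31107 had 167 reads in PR107 and 343 in CATAS8-79, Unigene43050 had 47 in PR107 and 147 in CATAS8-79, and Unigene27040 had 41 in PR107 and 172 in CATAS8-79. PUB33 (Unigene12036), which joins a U-box to a protein kinase domain, had 206 reads in PR107 and 508 in CATAS8-79. PUB13 (Unigene2329), which in Arabidopsis targets the flagellin receptor FLS2, had 34 reads in PR107 and 83 in CATAS8-79.

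**Figure D4:**
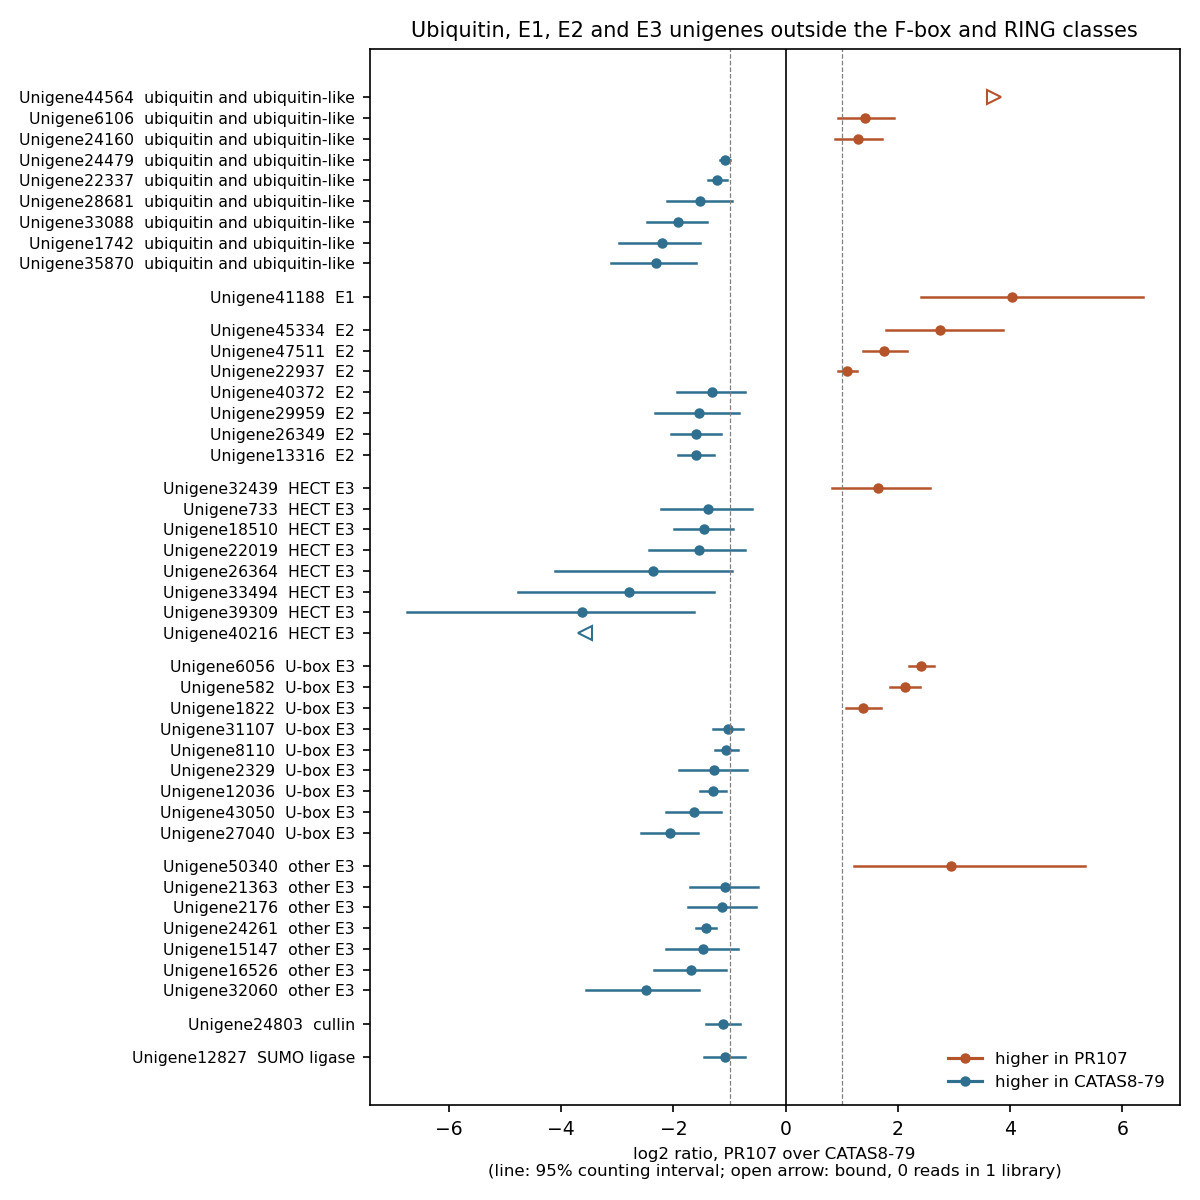
Log2 ratio, PR107 over CATAS8-79, of the unigenes of ubiquitin, E1, E2 and the smaller E3 classes, with 95% counting intervals. Open arrows mark bounds where 1 library had 0 reads, and dashed lines mark the 2-fold threshold. HECT unigenes lie left of 0 except Unigene32439, and the U-box unigenes lie in groups on either side.

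E3 ligases of other or unstated type were lower in PR107 in 6 of 7 unigenes and summed to 517 reads in PR107 and 1348 in CATAS8-79. Unigene24261, at 3659 bp the longest member, has a HERC1-like Swissprot hit and had 355 reads (14.1 RPKM) in PR107 and 956 reads (37.8 RPKM) in CATAS8-79. Its Nr text names a ZR1 protein and no ligase, and it holds most of the reads of this class. Without it the log2 ratio of the class sum was -1.26. PRT6 (Unigene16526), which in Arabidopsis recognises proteins by a basic first residue and takes part in oxygen sensing, had 29 reads in PR107 and 94 in CATAS8-79, a log2 ratio of -1.69 (-2.34 to -1.07). An N-recognin domain, of the same kind, is named for Unigene2176 (35 reads in PR107, 77 in CATAS8-79). Unigene32060, similar to an E3-alpha ligase, had 11 reads in PR107 and 62 in CATAS8-79, and Unigene15147 had 29 in PR107 and 81 in CATAS8-79. HERC2-like hits went both ways, with 23 reads in PR107 and 3 in CATAS8-79 for Unigene50340 and 35 in PR107 and 75 in CATAS8-79 for Unigene21363. Their Nr texts name ankyrin-repeat and RCC1-type proteins and no ligase.

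Of the RING ligases 25 of 42 unigenes were higher in PR107 (59.5%), a share near the 55.1% of all called unigenes. Among them are ATL proteins, membrane-bound RING-H2 ligases many of which respond to defence elicitors in Arabidopsis. Of 11 ATL unigenes 9 were higher in PR107, 4 of them in the last number range, where all 8 RING unigenes and 90.7% of called unigenes were higher in PR107. The family summed to 863 reads in PR107 and 442 in CATAS8-79 (log2 ratio 0.98, interval 0.81 to 1.14). Without them 16 of 31 RING unigenes were higher in PR107, with 4071 reads in PR107 and 4068 in CATAS8-79. The ATL group was chosen after its values were seen.

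Among the ATL unigenes, ATL3G (Unigene7776) had 138 reads (96.6 RPKM) in PR107 and 54 reads (37.5 RPKM) in CATAS8-79, and ATL3I (Unigene36008), with a hypoxia-responsive protein in its Nr text, had 127 reads (85.6 RPKM) in PR107 and 62 reads (41.5 RPKM) in CATAS8-79. ATL2E (Unigene41811) had 35 reads in PR107 and 5 in CATAS8-79, the widest ratio of the family at 7.05-fold with an interval of 2.75-fold to 23.1-fold. The ATL unigenes lower in PR107 both matched ATL1O, Unigene18634 with 54 reads in PR107 and 125 in CATAS8-79 and Unigene38252 with 0 in PR107 and 14 in CATAS8-79. In the first number range Unigene7776, Unigene11882, Unigene12299 and Unigene23154 were higher in PR107, and only Unigene18634 of the ATL family was lower.

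The RING unigenes with the most reads went both ways. At4g11680-like Unigene17855 had 383 reads (87.4 RPKM) in PR107 and 847 reads (192 RPKM) in CATAS8-79, and Unigene998, a C3HC4 protein with no Swissprot hit, had 301 reads (90.2 RPKM) in PR107 and 660 reads (196 RPKM) in CATAS8-79. Higher in PR107 were At1g12760-like Unigene11594 (550 reads in PR107, 268 in CATAS8-79), MARCH10-like Unigene21664 (489 in PR107, 160 in CATAS8-79) and RNF157-like Unigene12956 (454 in PR107, 186 in CATAS8-79). The widest ratios came from sparse unigenes. RING finger protein 5-like Unigene46377 had 37 reads in PR107 and 1 in CATAS8-79, CHY zinc finger Unigene43682 had 29 in PR107 and 1 in CATAS8-79, and 2 unnamed C3HC4 proteins had 0 reads in CATAS8-79 (Unigene51197 with 30 and Unigene51174 with 21 in PR107).

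At the other end, MGRN1-like Unigene30712 had 5 reads in PR107 and 84 in CATAS8-79, and a SINAT5-like unigene (Unigene33665) had 3 in PR107 and 45 in CATAS8-79. SINAT5 in Arabidopsis limits lateral roots by the turnover of the factor NAC1. Unigene40187, similar to RKP, which in Arabidopsis degrades inhibitors of the cell cycle, had 2 reads in PR107 and 30 in CATAS8-79. RNF5-like Unigene39993 had 2 reads in PR107 and 24 in CATAS8-79. All of these sparse unigenes lie in the later number ranges, those higher in PR107 in the last range and those lower in PR107 in the middle one.

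The only cullin called and most of the called F-box subunits of SCF ligases were lower in PR107. Cullin-1 (Unigene24803), the scaffold, had 132 reads (17.4 RPKM) in PR107 and 288 reads (37.6 RPKM) in CATAS8-79, a log2 ratio of -1.11 (-1.42 to -0.81). F-box unigenes made up the largest class, and 37 of 59 were lower in PR107. The share higher in PR107 was 37.3%, against 55.1% of all called unigenes. In the first number range 11 of 36 were higher in PR107 (called unigenes 52.8%). In the middle range 2 of 13 were (called unigenes 19.3%), and in the last range 9 of 10 (called unigenes 90.7%). Reads summed over the F-box class were nearly equal, 9551 in PR107 and 9706 in CATAS8-79, and the most abundant F-box unigene was on the PR107 side. This was SKIP22-like Unigene7489, with 2021 reads (160 RPKM) in PR107 and 446 reads (35.0 RPKM) in CATAS8-79. Without it the log2 ratio of the sum was -0.29. SKIP proteins are named for binding the plant SKP1.

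Next in reads came SKIP35-like Unigene8008 (665 reads in PR107, 1403 in CATAS8-79) and the WD-40 repeat F-box Unigene11745 (516 in PR107, 1116 in CATAS8-79). Unigene23165, an F-box protein with no Swissprot hit, had 805 reads in PR107 and 229 in CATAS8-79, and Unigene11787, similar to F-box/LRR-repeat protein 20, had 666 in PR107 and 214 in CATAS8-79. The repeats behind the F-box bind the substrate, and the counts for each repeat type are small. LRR-repeat F-box unigenes were higher in PR107 in 3 of 9, kelch-repeat ones in 5 of 9, WD-40 ones in 0 of 2 and those with a tubby domain in 3 of 3. The share over all called unigenes was 55.1%, and the kelch share was near it. Both WD-40 unigenes share 1 Swissprot hit, as do all 3 with a tubby domain, so each of these groups may come from 1 gene. Unigenes with SKIP in their text, a name that is no repeat type, were higher in PR107 in 3 of 9.

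The widest F-box difference toward PR107 was Unigene44341, with 99 reads (30.3 RPKM) in PR107 and 0 in CATAS8-79, at least 33.3-fold higher in PR107. Tubby-like F-box protein 5 followed (Unigene45752, 66 reads in PR107 and 2 in CATAS8-79), a 33.3-fold ratio with an interval of 8.85-fold to 280.3-fold. Unigene50659 had 53 reads in PR107 and 3 in CATAS8-79, and At3g07870-like Unigene45423 had 62 in PR107 and 8 in CATAS8-79. Toward CATAS8-79 the widest was Unigene39361, an F-box protein with no Swissprot hit, with 5 reads (2.14 RPKM) in PR107 and 131 reads (55.5 RPKM) in CATAS8-79, a log2 ratio of -4.70 (-6.35 to -3.44). At2g02240-like Unigene5682 had 21 reads in PR107 and 295 in CATAS8-79, At4g12560-like Unigene40246 had 4 in PR107 and 52 in CATAS8-79, and At5g07610-like Unigene32589 had 8 in PR107 and 52 in CATAS8-79. Those named here toward PR107 all lie in the last number range. Those toward CATAS8-79 lie in the middle one, except Unigene5682 in the first.

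Further F-box unigenes with a known plant relative were chosen after their values were seen. AFR (Unigene44031), which in Arabidopsis acts in far-red light signalling through phytochrome A, had 283 reads (29.6 RPKM) in PR107 and 38 reads (3.95 RPKM) in CATAS8-79. A SKP2A-like unigene (Unigene28184), whose Arabidopsis relative degrades cell-cycle factors, had 107 reads in PR107 and 219 in CATAS8-79. Another group of 6 members is called F-box in Nr, from poplar, yet matches Dof zinc finger transcription factors in Swissprot. Of these, 4 were higher in PR107. They were DOF1.4-like Unigene41378 (236 reads in PR107, 47 in CATAS8-79) and Unigene31919 (107 in PR107, 36 in CATAS8-79), DOF2.2-like Unigene46201 (65 in PR107, 14 in CATAS8-79) and DOF3.1-like Unigene3734 (221 in PR107, 48 in CATAS8-79). The other 2 were lower in PR107, DOF3.3-like Unigene5948 (239 in PR107, 627 in CATAS8-79) and DOF3.7-like Unigene32581 (3 in PR107, 80 in CATAS8-79). Their place among the F-box proteins rests on 1 database text.

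The SUMO pathway gave 1 member, the ligase SIZ1 (Unigene12827), which attaches the ubiquitin-like protein SUMO and in Arabidopsis acts in phosphate and cold responses. It had 92 reads (14.8 RPKM) in PR107 and 196 reads (31.4 RPKM) in CATAS8-79, a log2 ratio of -1.08 (-1.45 to -0.72).

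Deubiquitinases, which take ubiquitin off again, were higher in PR107 in 4 of 8 unigenes and summed to 525 reads in PR107 and 519 in CATAS8-79, a log2 ratio of 0.03 whose interval (-0.15 to 0.21) holds 0. Named ubiquitin-specific proteases were on either side. UBP7 (Unigene10973) had 56 reads in PR107 and 16 in CATAS8-79, UBP13 (Unigene41808) had 44 in PR107 and 91 in CATAS8-79, and UBP5 (Unigene20339) had 25 in PR107 and 78 in CATAS8-79. The UBP12 and UBP13 pair acts in flowering and defence in Arabidopsis. Of the thiolesterases without a further name, Unigene23421 had 135 reads in PR107 and 60 in CATAS8-79, and Unigene1566 had 28 in PR107 and 110 in CATAS8-79. For Unigene7666 (42 in PR107, 11 in CATAS8-79), Unigene2257 (180 in PR107, 89 in CATAS8-79) and Unigene33720 (15 in PR107, 64 in CATAS8-79) the 2 databases named different proteins.

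Members that share a best Swissprot hit mostly moved together. There were 23 such hits, covering 55 members, and in 18 of them all members lay on 1 side, 5 toward PR107 and 13 toward CATAS8-79. Toward PR107 these were PUB40, Tubby-like F-box protein 5, the kelch F-box OR23, a CHY zinc finger RING protein and DOF1.4. Tubby-like F-box proteins join an F-box to a tubby domain, and their 3 unigenes summed to 895 reads in PR107 and 342 in CATAS8-79. Toward CATAS8-79 they included SKIP35, with 958 reads in PR107 and 2114 in CATAS8-79 over 3 unigenes, F-box/LRR-repeat protein 15 (88 in PR107 and 243 in CATAS8-79), RPN1a, PUB3 and UPL5. Members in both directions were found for UPL2, HERC2, RING finger protein B, ubiquitin and UBC27. Such unigenes may be pieces of 1 transcript or copies of a gene, and reads may be shared among copies.

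**Figure D5:**
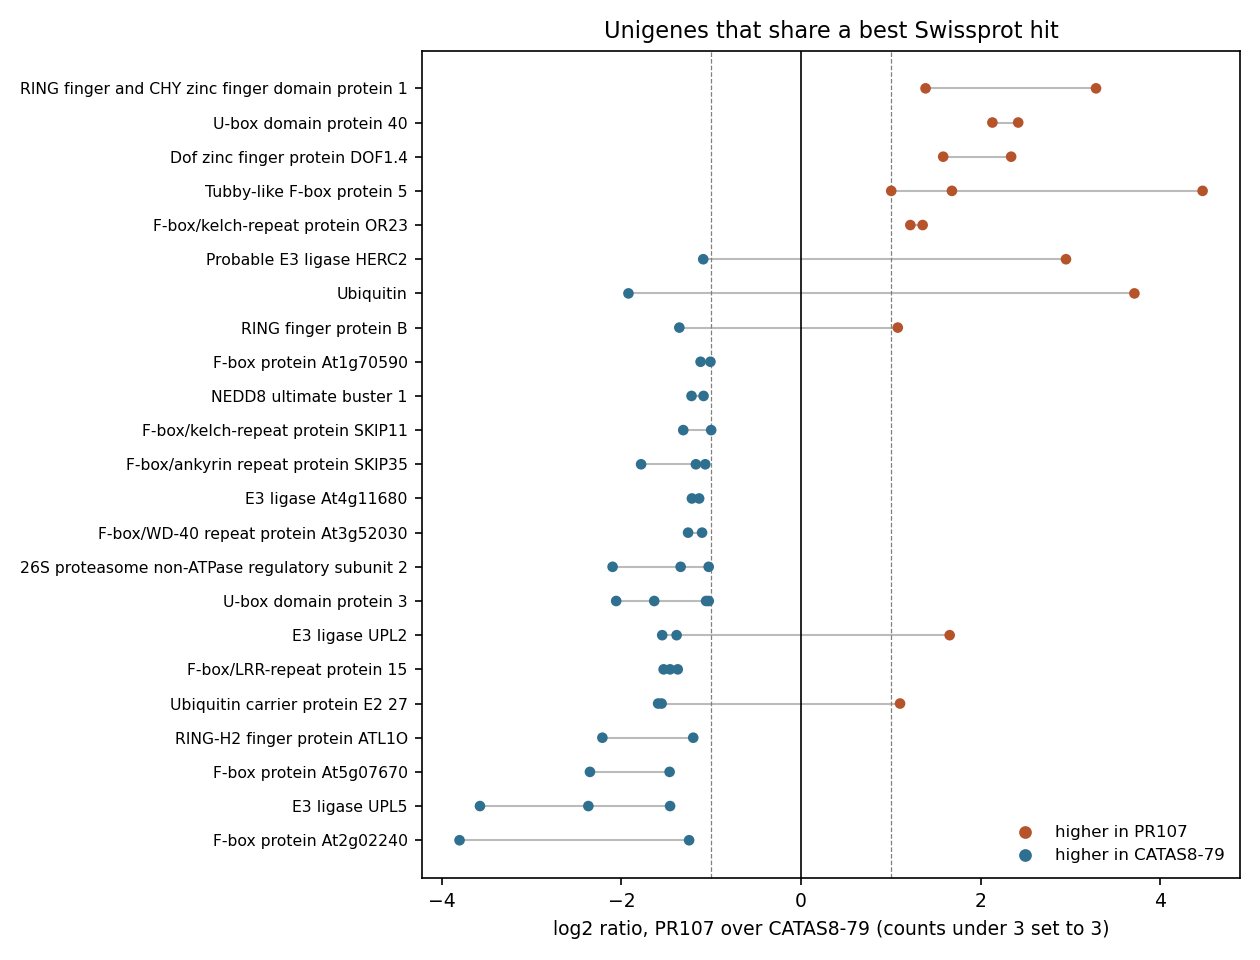
Log2 ratio, PR107 over CATAS8-79, of members that share a best Swissprot hit, 1 row per hit and 1 point per unigene, with counts under 3 set to 3. In 18 of 23 rows all points are on the same side of 0.

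Neighbours of the system outside the members were few. The lists searched among the called unigenes were the COP9 signalosome, BTB adaptors, DDB1 and DCAF proteins, NEDD8 and RUB, CDC48, autophagy and the N-end rule, and they held 14 unigenes, 4 higher in PR107 and 10 higher in CATAS8-79. The NEDD8 pathway, which activates cullins, gave a Ubc12-like conjugating enzyme (Unigene48532) with 374 reads (229 RPKM) in PR107 and 771 reads (468 RPKM) in CATAS8-79. The COP9 signalosome, which takes NEDD8 off cullins, gave subunit 8 (Unigene6241, 178 reads in PR107 and 393 in CATAS8-79) and subunit 6 (Unigene50472, 29 reads in PR107 and 7 in CATAS8-79). BTB adaptors of CUL3 ligases were higher in PR107 in 2 of 6, and autophagy proteins in 1 of 4. No called unigene outside the members matched the CDC48 or the N-end rule words.

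The call was recomputed over all 51192 unigenes with Fisher's exact test (two-sided), setting the reads of a unigene against all other reads, with Benjamini-Hochberg adjustment, at an FDR of 0.001 and a 2-fold change. It called 12.8% of all unigenes, and 171 of the 175 members, which were themselves chosen from this contrast. This test compares 2 libraries, not 2 clones. When a biological coefficient of variation of 0.4 was assumed in edgeR's exact test in place of counting error alone, 0.371% of all unigenes were called and 2 of the members, the PBC1-like Unigene14300 and the F-box Unigene44341.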

How the data were processed

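The study sequenced latex RNA of PR107 and CATAS8-79, 1 library per clone, from pools of 5 trees. The sample labels give the trees as 3 years old and the paper's methods as 7 years. De novo assembly was done by the authors in SOAPdenovo (k-mer 29), with no genome, and they deposited read counts for each unigene. The deposited RPKM values equal the reads scaled by unigene length and by the library total to within 0.001 in all 51192 unigenes, while the methods speak of TPM. The submitters' notes list a mouse genome build, which has no role here. Log2 ratios, p-values and FDR of the authors' own comparison are also in the files, and their values were not used, except that the list of called unigenes chose the members. Clones were assigned to columns by the clone number in the column name. The split of called unigenes by direction in the paper's text runs the other way from that of the deposited columns, and this was not settled here. A second table gives the best Nr and Swissprot texts for called unigenes only.

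The members and lists were chosen with earlier results of these data known, and the words that sort members into classes were revised after the annotations were read. The unigenes named were all members of the smaller classes (15 or fewer members) and, in the F-box, RING, U-box and other E3 classes, the 5 with the most reads and the 4 with the largest change in each direction, a count of 3 or fewer being set to 3, and the members nearest the fold threshold. Others are said to be chosen after their values were seen, as were the unigenes listed for shared hits. Summed reads were set against the library totals. Reads are not independent molecules, as no molecular identifiers were used.

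With 1 library per clone edgeR's quasi-likelihood test has no residual degrees of freedom, so Fisher's exact test was used. It was tested on simulated data that held counting error only, which cannot show how it behaves when trees or libraries vary. Other settings tried were scaling by TMM (edgeR) or median ratios (DESeq2), edgeR's exact test with the biological coefficient of variation set to 0.2 or 0.4, members of a minimum length or read number, sums of RPKM, and sums without the most abundant member. Chosen after seeing the data were the restriction to unigene numbers below the first missing number, leaving out 11 members whose database texts name different proteins, and median-ratio scaling of the class sums. A table of 50196 RefSeq genes of the species matched 0 member identifiers, so names come from the deposited texts, and unigenes have no genome position here. Tests in R 4.3.3 used edgeR 4.0.16 and DESeq2 1.42.0. Those in Python 3.11.15 used scipy 1.17.1, with pandas 2.3.3 and numpy 2.4.6 for the tables and matplotlib 3.10.9 for the plots.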

Additional observations from a re-analysis of the deposited data

How the results depend on the processing

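Under the alternatives run, the share of members higher in PR107 had its lowest value, 39.8% (43 of 108), with unigene numbers below the first missing number. Its highest value was 46.1% (47 of 102), with members of 500 bp or longer, though split by length the share was 52.8% from 1000 bp on. No replicate could be left out, and no paired analysis was possible because each clone has 1 library. The calls depended on the spread assumed between libraries. With the biological coefficient of variation set to 0.2 in edgeR's exact test 33 members and 1515 unigenes in all were called, and with 0.4 these were 2 and 190. A 4-fold threshold left 56 members. With a floor of 10 reads in place of 3, 40 members were at the floor in 1 library. The summed 20S core had a log2 ratio of 1.28 when RPKM was summed, and the 19S particle -1.37 without its most abundant member, with the directions kept. Sums that turned were those of E2 enzymes (-0.465) and U-box ligases (-0.28) without their most abundant member, and those of other proteasome-related unigenes, at -0.47 with summed RPKM and -1.40 without the most abundant member. The deubiquitinase sum, whose interval holds 0, was -0.103 with summed RPKM, -0.019 under TMM, -0.001 with median ratios and -0.307 without its most abundant member. TMM lowered log2 ratios by 0.05 and median ratios by 0.03, and under TMM 171 members passed the recomputed call. Depth limits the sparse unigenes most, as 22 members had 3 or fewer reads in 1 library and 42 had 100 or more in both.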
